A study of Mus musculus with 6 samples.

Results

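The enzymes of the pentose phosphate pathway were followed in liver RNA of Mdr2 knockout mice given lycorine or vehicle. The 10 genes were taken from a list of names, chosen with earlier results of these data known. They were Tkt, Taldo1, G6pdx, H6pd, Pgls, Pgd, Rpia, Rpe, Rbks and Prps1. Each was found as 1 row among the 58601 rows of the deposited table, and all 10 passed the filter of a mean of at least 1 TPM (transcript abundance per length, scaled so that each library sums to 1000000), as did 13854 rows in all.

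Liver tissue gave 3 libraries labelled Mdr2 knockout with lycorine, an alkaloid of Amaryllidaceae plants, and 3 labelled Mdr2 knockout with vehicle. Both groups carry the same knockout, of the gene now called Abcb4, which encodes the transporter that moves phosphatidylcholine into bile. The protocol calls the animals Mdr2-HKO without saying in which cells the gene was removed, gives their age at the start as 8 weeks and the treatment as 2 weeks, and states neither strain, sex nor dose. No wild-type library was analysed here, and Abcb4 was present at 8.32 to 32.2 TPM in lycorine and 10.8 to 43.5 TPM in vehicle libraries, so its level does not check the genotype. The labels number the libraries without saying that each came from a different mouse. The p-values therefore reflect library-to-library variation, of which part or all may be technical. The study's title names transketolase (Tkt) and the transcription factor Atf3, and Tkt is accordingly described first among the enzymes.

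The pathway branches from glycolysis at glucose 6-phosphate. Its oxidative branch yields NADPH, which the liver spends on lipid and cholesterol synthesis, on reducing glutathione and on cytochrome P450 reactions. Its reversible non-oxidative branch exchanges carbon between pentose phosphates and the sugars of glycolysis, and ribose 5-phosphate from it feeds nucleotide synthesis. Transketolase, with thiamine diphosphate as cofactor, and transaldolase (Taldo1) catalyse the carbon transfers.

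Vehicle 3 stood apart from the other libraries. Protein-coding nuclear genes held 69.5% to 78.1% of TPM in the lycorine libraries, against 71.5% and 63.7% in vehicle 1 and vehicle 2 and 51.5% in vehicle 3. The hepatocyte gene Alb was between 11824 and 19785 TPM in lycorine libraries, at 16618 and 18246 TPM in vehicle 1 and vehicle 2 and at 5039 TPM in vehicle 3. All 12 hepatocyte markers were above 0 in every library, with summed levels of 33520 to 50640 TPM in lycorine and 17740 to 47450 TPM in vehicle. The sums are mostly Alb and Apoa1, and vehicle 3 was the lowest library for 6 of the 12 markers. Hnf4a, a hepatocyte transcription factor, was not among them, at 63.1, 53.2 and 30.5 TPM in lycorine and 57.9, 56.8 and 39.7 TPM in vehicle. A lower TPM in bulk tissue can mean fewer cells of a type, less RNA per cell or a larger share of other rows. These cannot be told apart.

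The stretches before the RefSeq starts of Tkt and Taldo1, the pair of transferases, are shown because the title sets Tkt beside Atf3. They are 250 bases each, on GRCm38.p6, at chr14:30548881-30549130 on the plus strand for Tkt and chr7:141391910-141392159 on the plus strand for Taldo1. The Tkt stretch lies within the gene as GENCODE M21 annotates it, since a processed transcript of Tkt begins further upstream, at 30548359.
Tkt: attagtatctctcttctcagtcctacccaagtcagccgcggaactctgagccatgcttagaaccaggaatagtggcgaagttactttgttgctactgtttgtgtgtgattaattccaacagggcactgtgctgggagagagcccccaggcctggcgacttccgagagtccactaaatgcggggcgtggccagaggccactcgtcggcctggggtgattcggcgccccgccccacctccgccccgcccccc
Taldo1: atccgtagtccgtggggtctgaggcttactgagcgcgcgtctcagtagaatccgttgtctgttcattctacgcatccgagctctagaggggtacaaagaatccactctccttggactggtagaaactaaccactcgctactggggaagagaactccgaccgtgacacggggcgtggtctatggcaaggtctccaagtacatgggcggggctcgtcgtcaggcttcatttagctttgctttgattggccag

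Windows from 250 bases before to 50 bases after the start were searched on both strands for 3 motifs. All 10 genes had a window, 11 windows in all since Pgd has a pair of start sites. The H6pd window, with its upstream part at chr4:150003237-150003486 on the minus strand, lies inside the gene as GENCODE M21 annotates it, from 149979475 to 150009023. Bases before that annotated start of H6pd were not searched. The palindrome bound by ATF and CREB factors, TGACGTCA, was in 0 of the 10 genes and in 1.79% of all 32851 windows. The E-box CACGTG was also in 0 of the 10, and in 7.15% of all windows. The core of the antioxidant response element, TGACNNNGC, bound by the oxidative stress factor NRF2, was in 3 of the 10, namely G6pdx, Pgd and Rbks, and in 12.4% of all windows. No match says only that these letters are not in this window. The shares of all windows count windows, not genes.

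The 4 sites with that core are shown in capitals with 10 bases on either side, each on the strand of its gene. They lie at chrX:74428919-74428947 for G6pdx, chr4:149166061-149166089 for Pgd, and chr5:31697815-31697843 and chr5:31697611-31697639 for Rbks, all on the minus strand.
G6pdx: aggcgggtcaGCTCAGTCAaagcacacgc
Pgd: atttcagagcTGACATTGCactgatcgga
Rbks, distal: tgcttggcgcGCTCTGTCAttctcgccgt
Rbks, proximal: agggcaaaggGCAGCGTCAgggttgagca
The G6pdx and both Rbks sites read as the reverse complement of the core. The core begins 57 bases before the start in G6pdx, and 223 and 19 bases before it in Rbks. In Pgd it begins at base 4 of the transcript that begins at the downstream start site. GENCODE M21 also holds a longer G6pdx transcript that begins further upstream, so the G6pdx site lies inside that transcript.

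Tkt, on chromosome 14 from 30548359 to 30574720 (GRCm38), had 81.0, 78.9 and 59.2 TPM in lycorine libraries 1 to 3, against 75.1, 67.0 and 29.7 TPM in vehicle libraries 1 to 3. The groups overlapped, since lycorine 3 lay below vehicle 1 and vehicle 2, and vehicle 3 was the lowest. Its mean was 73.0 ± 12.0 TPM in lycorine and 57.2 ± 24.2 TPM in vehicle (SD, n = 3 each). The log2 fold change on the log2(TPM + 1) scale was 0.44, with a 95% interval of -0.51 to 1.38 and a limma Benjamini-Hochberg adjusted p of 0.832. An exact two-sided permutation test gave p = 0.5, where 0.1 is the smallest p that 3 against 3 libraries allow. Without vehicle 3 the fold change was 0.03 on that scale, and with median-of-ratios scaling in addition it was -0.21.

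Taldo1, transaldolase, on chromosome 7 from 141392199 to 141402968, had 148.6, 133.9 and 96.8 TPM in lycorine libraries and 98.6, 105.8 and 47.8 TPM in vehicle libraries. Lycorine 1 and lycorine 2 were above every vehicle library, and lycorine 3 was below vehicle 1 and vehicle 2. Taldo1 had the highest log2 fold change of the 10 genes, 0.64 with a 95% interval of -0.26 to 1.54 (limma adjusted p = 0.832, exact permutation p = 0.3). Without vehicle 3 its log2 fold change was 0.28.

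The balance between the transferases can be read within a library, where scaling between libraries plays no part. The ratio of Tkt to Taldo1 TPM within a library was 0.545, 0.589 and 0.612 in lycorine, against 0.762, 0.633 and 0.620 in vehicle. Every lycorine library lay below every vehicle library, yet lycorine 3 and vehicle 3 differed by less than the spread within either group. Of the 45 ratios between pairs of the 10 genes, 2 separated the groups in this way, Tkt over Taldo1 and Taldo1 over Rbks, and the second of these was noticed after its values were seen. The others overlapped, the share over all pairs of genes was not computed, and the ratio was not tested. Reads may be shared between Taldo1 and its processed pseudogene Gm17823, which matches it at 94.7% over 923 bases and was listed at 1.70, 3.25 and 4.82 TPM in lycorine and 3.91, 1.16 and 14.7 TPM in vehicle.

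**Figure D1:**
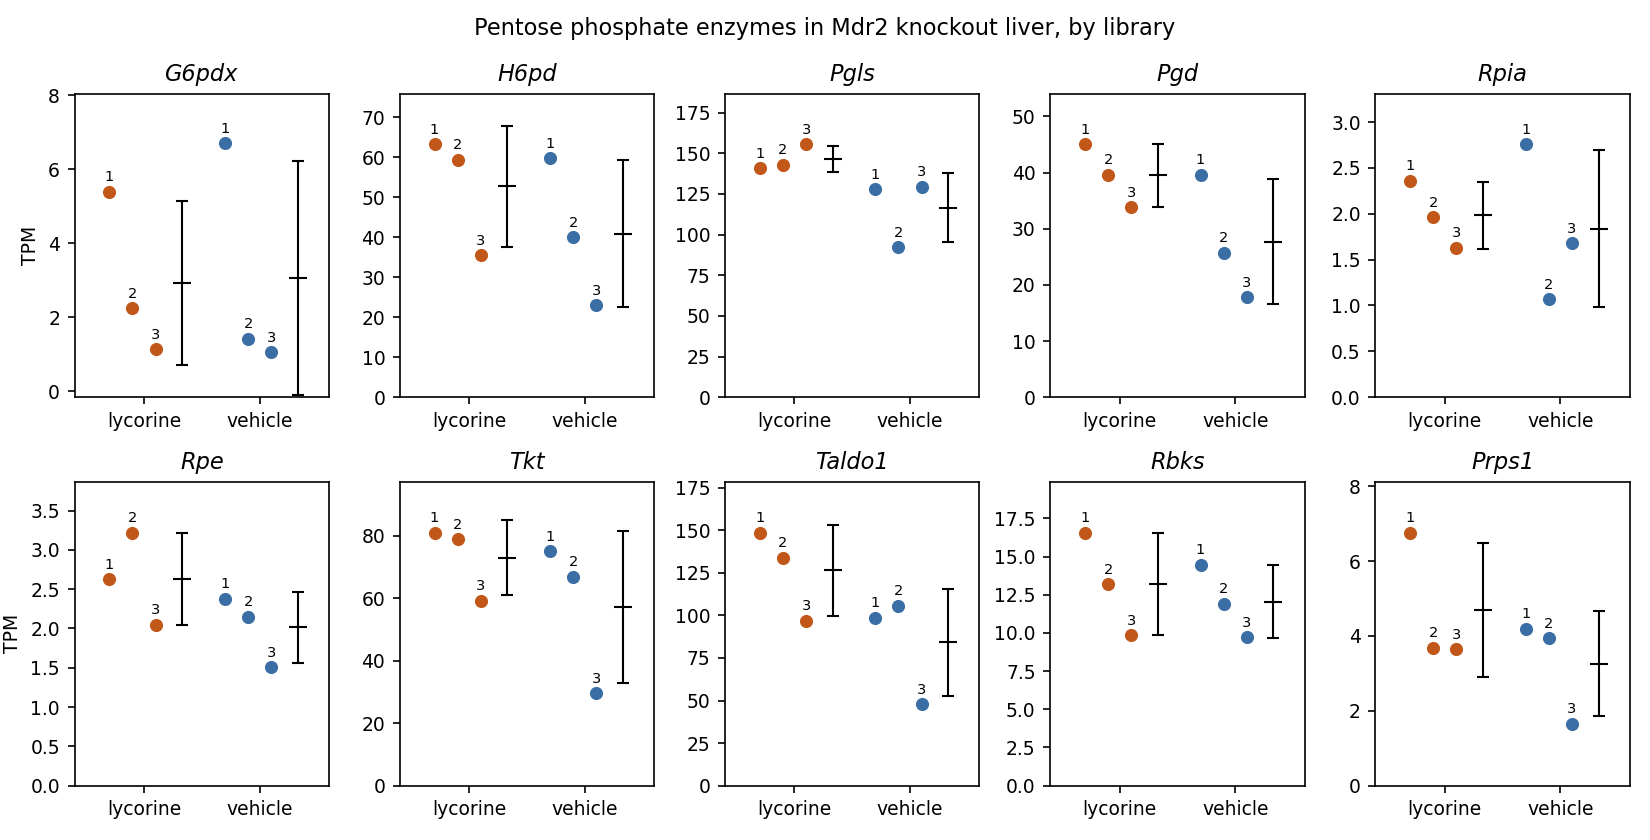
TPM of each enzyme in each library, lycorine left and vehicle right, with library numbers beside the points and the mean ± SD (n = 3) as a black bar at the right of each group. Pgls is the only gene whose lycorine libraries, 140.9 to 155.7 TPM, all lie above the vehicle libraries, and vehicle 3 is the lowest library for 8 of the 10 genes.

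The oxidative enzymes were measured at very different levels. G6pdx, the cytosolic glucose 6-phosphate dehydrogenase that opens the pathway and sets its rate, had 5.40, 2.24 and 1.14 TPM in lycorine and 6.71, 1.42 and 1.05 TPM in vehicle. Library 1 of each group was high and the other libraries were low, so the spread within a group was far larger than the difference between groups. Its log2 fold change was 0.07 with a 95% interval of -1.39 to 1.53 (limma adjusted p = 0.980), the widest interval of the 10. The sign was negative without vehicle 3, at -0.29, and with median-of-ratios scaling, at -0.12.

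H6pd, which carries out the opening oxidative reactions inside the endoplasmic reticulum, was far more abundant than G6pdx, at 63.2, 59.4 and 35.4 TPM in lycorine and 59.8, 40.0 and 22.9 TPM in vehicle. The groups overlapped, and its log2 fold change was 0.42 (95% interval -0.58 to 1.41). Without vehicle 3 it was 0.06. The ratio of H6pd to G6pdx TPM was 11.7, 26.5 and 31.1 in lycorine and 8.91, 28.2 and 21.8 in vehicle. It was lowest in library 1 of each group, where G6pdx was high.

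Pgls, the lactonase that opens 6-phosphogluconolactone, was at 140.9, 142.9 and 155.7 TPM in lycorine and 127.8, 92.1 and 129.5 TPM in vehicle. Each lycorine library lay above each vehicle library, with an exact permutation p of 0.1, the smallest possible. The log2 fold change was 0.34 with a 95% interval of -0.30 to 0.98 (limma adjusted p = 0.832). With median-of-ratios scaling it was 0.03 and the groups overlapped. Pgls was also the 1 strongly expressed enzyme that was not low in vehicle 3, where it made up 49.2% of the summed TPM of the 10 genes, against 26.2% to 29.6% in the other vehicle libraries and 27.5% to 39.0% in lycorine.

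Pgd, 6-phosphogluconate dehydrogenase, which yields NADPH and ribulose 5-phosphate, was at 45.1, 39.6 and 33.8 TPM in lycorine and 39.7, 25.7 and 17.8 TPM in vehicle. Lycorine 3 lay below vehicle 1, lycorine 2 was level with it, and the log2 fold change was 0.56 (95% interval -0.27 to 1.39, limma adjusted p = 0.832). Without vehicle 3 it was 0.29.

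The isomerases of ribulose 5-phosphate were near the filter. Rpia, which makes ribose 5-phosphate, had 2.36, 1.96 and 1.63 TPM in lycorine and 2.76, 1.07 and 1.68 TPM in vehicle. Rpe, the epimerase that makes xylulose 5-phosphate, had 2.63, 3.22 and 2.05 TPM in lycorine and 2.38, 2.15 and 1.51 TPM in vehicle. Both overlapped between groups, with log2 fold changes of 0.11 for Rpia and 0.27 for Rpe, or 0.09 and 0.14 without vehicle 3. Rpe shares 558 identical transcript bases with Kansl1l, which overlaps it on the other strand and had 0.84 to 2.37 TPM, so reads there cannot be assigned with certainty.

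The remaining pair stands at the entry and exit of ribose. Rbks, ribokinase, which phosphorylates free ribose, was at 16.6, 13.2 and 9.84 TPM in lycorine and 14.5, 11.9 and 9.73 TPM in vehicle, nearly the same range in both groups. Its log2 fold change was 0.11, and it was -0.02 without vehicle 3. Prps1, which turns ribose 5-phosphate into phosphoribosyl pyrophosphate, was at 6.76, 3.69 and 3.64 TPM in lycorine and 4.19, 3.94 and 1.65 TPM in vehicle. Lycorine 1 was high and vehicle 3 low, the others lay close together, and the log2 fold change was 0.44 (95% interval -0.47 to 1.35). Without vehicle 3 it was 0.13. A similar gene, Prps1l3, matches Prps1 at 92.8% over 1500 bases and was at 1.18 to 2.13 TPM in lycorine and 0.46 to 0.90 TPM in vehicle, so the values of both are uncertain.

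Other copies gave no signal. Tktl1 and Tktl2, the transketolase-like paralogs, were listed at 0 in all 6 libraries, and so was G6pd2, a gene 93.1% identical to G6pdx over 2331 bases. Annotated genes also overlap G6pdx (Ikbkg, other strand, 4.43 to 11.3 TPM), Rbks (Mrpl33, other strand, 43.9 to 82.1 TPM) and Pgls (Fam129c, same strand, 0.87 to 5.87 TPM), and reads from the shared stretches could have been counted for either gene.

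The order of the levels was stable across libraries. Tkt had rank 3, H6pd rank 4, Pgd rank 5 and Rbks rank 6 of the 10 genes in each of the 6 libraries, and 39 of the 45 pairs kept the same order in all 6. Pgls was above Taldo1 in 4 libraries and below it in lycorine 1 and vehicle 2, so those neighbours at the top were not separated. At the bottom, Prps1, G6pdx, Rpe and Rpia changed places, and G6pdx ranked between 7 and 10.

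Across the 10 genes, 0 passed the limma test at an adjusted p of 0.05, as did 0.0% of all 13854 rows, and 0 had an unadjusted p under 0.05, against 476 rows or 3.44% of all. The log2 fold change was above 0 for 10 of 10 genes, but also for 69.9% of all rows. The median was 0.38 for the 10 genes and 0.22 for all rows, and 7 of the 10 lay above the median of all rows. Under median-of-ratios scaling, where the median of all rows was -0.02 and 47.8% of them were above 0, it was 0.08 and 7 of 10 were above 0. Without vehicle 3 the medians were 0.11 for the 10 genes and 0.20 for all rows, so the genes then lay below the table's middle.

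Complete separation of the groups upward was seen in 1 of the 10 genes, Pgls, against 9.6% of all rows. Downward separation was seen in 0 of 10, against 1.01% of rows. With median-of-ratios scaling 0 of 10 separated upward, against 3.2% of rows. These shares are near the background. The summed TPM of the 10 genes was 512.5, 479.0 and 399.1 in lycorine and 431.4, 351.1 and 263.3 in vehicle, with lycorine 3 below vehicle 1. As a share of protein-coding nuclear TPM the sum was 0.0657%, 0.0636% and 0.0574% in lycorine and 0.0603%, 0.0552% and 0.0511% in vehicle, with the same overlap.

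**Figure D2:**
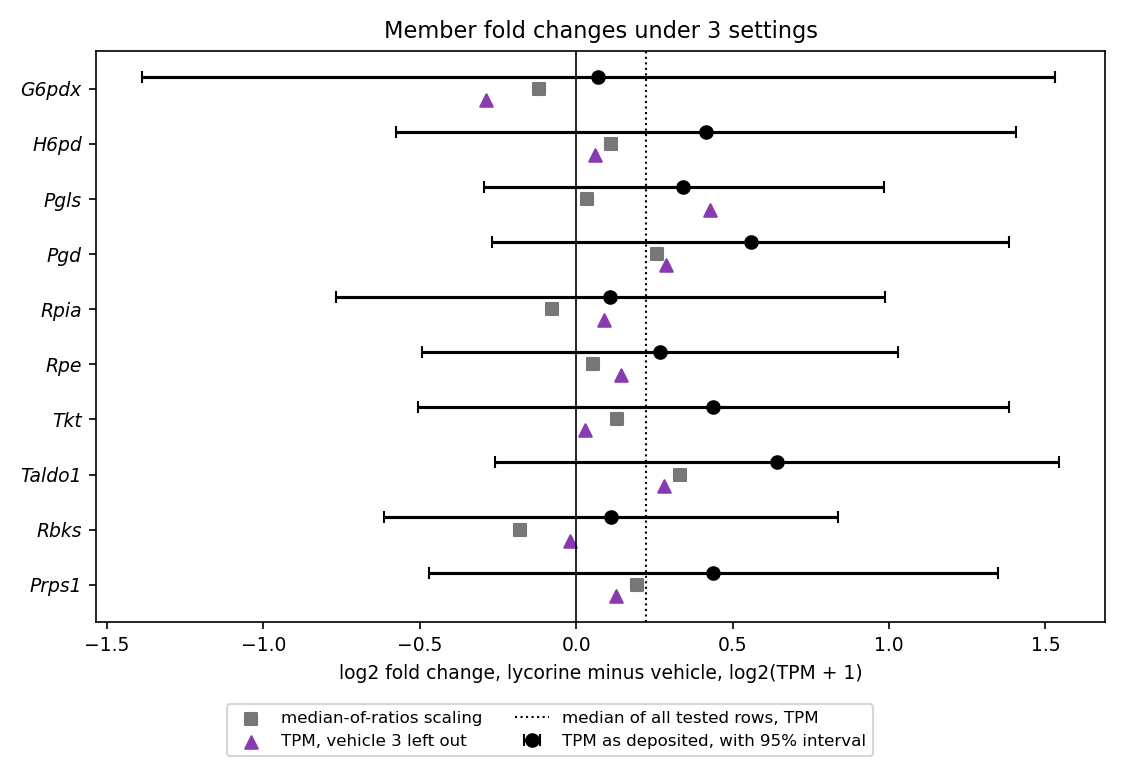
Log2 fold change of lycorine minus vehicle for each enzyme, as deposited (black, with 95% interval), with median-of-ratios scaling (grey squares) and with vehicle 3 left out (purple triangles). All 10 intervals include 0, and the dotted line is the median of all tested rows, 0.22.

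The non-oxidative and oxidative branches kept a similar balance in lycorine and a variable one in vehicle. Summed TPM of G6pdx, H6pd, Pgls and Pgd over that of Tkt, Taldo1, Rpia and Rpe was 1.09, 1.12 and 1.42 in lycorine and 1.31, 0.905 and 2.12 in vehicle. Vehicle 3 was the highest and vehicle 2 the lowest. Without Pgls in the sum, the ratio was 0.485, 0.464 and 0.441 in lycorine and 0.593, 0.382 and 0.517 in vehicle. Vehicle 3 was then no longer the highest. Pgls itself was not raised in vehicle 3, at 129.5 TPM against 127.8 TPM in vehicle 1. The non-oxidative sum was low there, at 80.7 TPM against 178.8 and 176.0 TPM in vehicle 1 and vehicle 2.

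The enzymes fell into patterns over the libraries, which are described here by Pearson's r on log2(TPM + 1) over 6 libraries, with no test. The 6 libraries share 1 scaling, and r is given with and without vehicle 3. Tkt had r = 0.96 with Taldo1, 0.94 with H6pd and 0.91 with Pgd, but 0.63 with G6pdx and 0.03 with Pgls. Without vehicle 3 these were 0.77, 0.97, 0.68, 0.74 and 0.07.

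Among 6661 named genes with a mean of at least 5 TPM, those most like Tkt over the 6 libraries were Cdc123, Ubl5, Gm42429, Igtp, Sap18b, Ccpg1os, S100a1 and Gm12481, with r of 0.996 to 0.998. Cdc123, a factor in assembly of a translation initiation complex, had 37.9, 36.5 and 24.9 TPM in lycorine and 32.8, 30.7 and 9.94 TPM in vehicle. All 8 were lowest in vehicle 3, and without it r was 0.960 to 0.998.

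G6pdx had r = 0.90 with Rbks, 0.84 with Rpia and 0.81 with H6pd, and 0.88, 0.88 and 0.84 without vehicle 3. Library 1 was the highest of each group for G6pdx, and also for Tkt, H6pd, Pgd, Rpia, Rbks and Prps1. The genes nearest to G6pdx in the table were looked up after its values had been seen. They included Rac2, Trrap, Marcksl1, Dnajb11, Ucp2, Gas6 and Picalm, with r of 0.991 to 0.998 over 6 libraries. Rac2, a GTPase of blood cells, had 12.6, 5.07 and 2.74 TPM in lycorine and 18.6, 3.32 and 2.54 TPM in vehicle, and Ucp2, a mitochondrial carrier, had 164.4, 59.7 and 26.5 TPM in lycorine and 181.4, 36.3 and 33.3 TPM in vehicle. As with G6pdx, library 1 was the highest of each group.

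Some markers of other cells were, like G6pdx, highest in library 1 of each group, and others were not. Lyz2, the lysozyme of macrophages and neutrophils, was at 299.8, 139.3 and 52.0 TPM in lycorine and 370.0, 81.7 and 72.6 TPM in vehicle, and G6pdx TPM per 100 TPM of Lyz2 was 1.80, 1.61 and 2.19 in lycorine and 1.81, 1.74 and 1.45 in vehicle. The summed TPM of 10 recruited macrophage markers was 570.6, 303.2 and 117.8 in lycorine and 613.1, 146.4 and 134.0 in vehicle, with Itgam at 0 in 5 libraries and Chil3 in 4. Library 1 was the highest of each group for 7 of these 10 markers. That of 10 bile duct markers was 242.5, 167.0 and 67.9 in lycorine and 256.1, 59.6 and 69.8 in vehicle, with library 1 the highest of each group for 8 of 10, but Cftr, a chloride channel, highest in vehicle 3. The 12 markers listed for Kupffer cells, the resident macrophages, summed to 454.8, 202.7 and 163.6 TPM in lycorine and 645.6, 258.3 and 369.4 TPM in vehicle. Of the 12, 6 were highest in library 1 of each group, namely the complement genes C1qa, C1qb and C1qc and also Csf1r, Cd68 and Adgre1. These 6 are not particular to resident macrophages. Another 5 were highest in vehicle 3. Clec4f, a lectin of Kupffer cells, was among the 5 highest in vehicle 3, at 14.6, 18.7 and 52.8 TPM in lycorine and 64.8, 57.1 and 99.5 TPM in vehicle. All 11 tested Kupffer markers had a log2 fold change below 0, whereas 69.9% of all rows were above 0. Of the 11, 5 separated the groups downward, against 1.01% of all rows. Of other lists, stellate and myofibroblast markers summed to 244.3, 115.0 and 53.2 TPM in lycorine and 215.5, 99.55 and 112.6 TPM in vehicle. B and plasma cell markers summed to 449.7, 169.2 and 79.9 TPM in lycorine and 546.4, 128.7 and 117.0 TPM in vehicle. Both sums were highest in library 1 of each group, while sinusoidal endothelial markers summed highest in vehicle 3, at 197.5 TPM. The share of all rows with this pattern was not computed. The part of these cells in the G6pdx level was not tested.

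**Figure D3:**
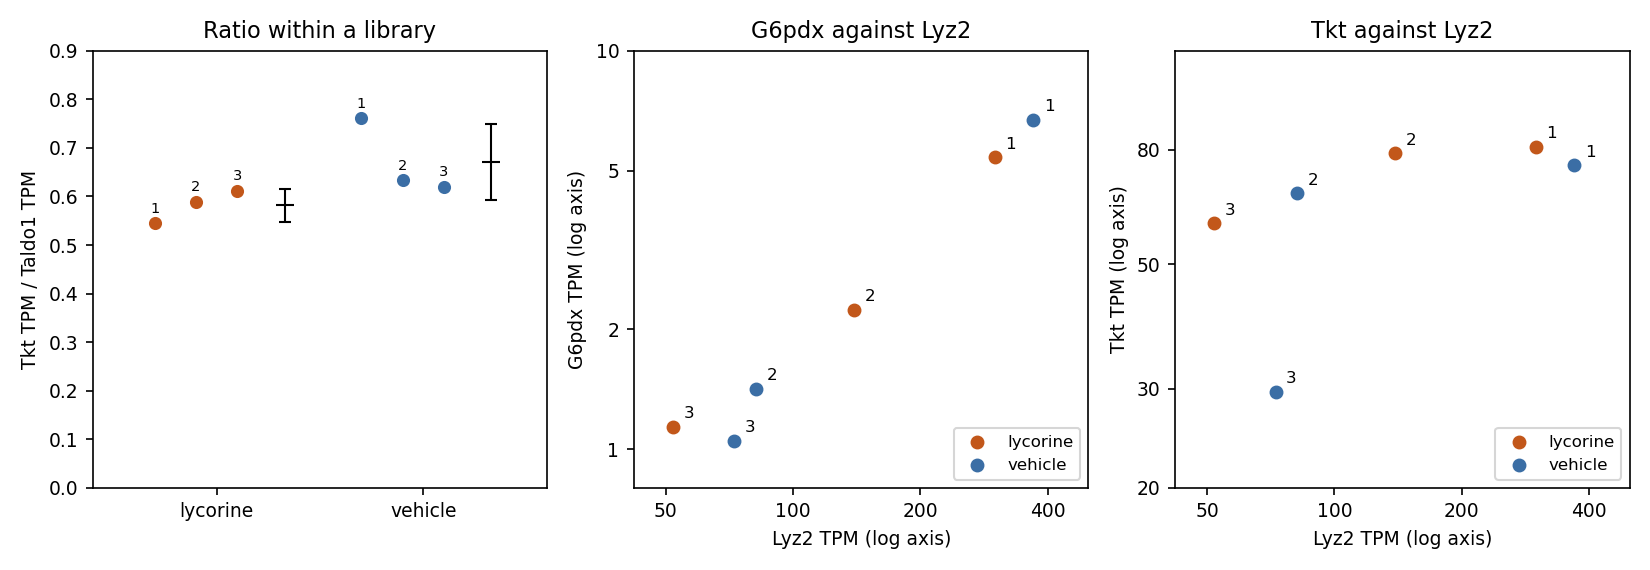
Left, Tkt TPM over Taldo1 TPM in each library with the mean ± SD (n = 3). Middle and right, G6pdx and Tkt TPM against Lyz2 TPM on log axes, with library numbers: G6pdx spans 1.05 to 6.71 TPM in the order of Lyz2 except for lycorine 3 and vehicle 3, while Tkt lies between 59.2 and 81.0 TPM over the same span apart from vehicle 3 at 29.7 TPM.

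Genes around the pathway were read from lists. Beside the counts that follow, 69.9% of all rows had a log2 fold change above 0. Complete separation upward was seen in 9.6% of all rows, and in 3.2% with median-of-ratios scaling. Of 9 tested genes handling ribose, sedoheptulose and phosphoribosyl pyrophosphate, 0 passed the test, 9 had a log2 fold change above 0 and the median was 0.43, against 0.22 for all rows. Without vehicle 3 the median was 0.21, against 0.20 for all rows. Prpsap1, a regulatory partner of Prps enzymes, had 59.4, 60.8 and 61.0 TPM in lycorine and 44.8, 36.1 and 50.3 TPM in vehicle, and the groups did not overlap. Dera, the deoxyribose phosphate aldolase, had 20.9, 14.6 and 12.7 TPM in lycorine and 11.4, 11.8 and 5.81 TPM in vehicle. Pgm1, a phosphoglucomutase, had 46.9, 36.1 and 36.4 TPM in lycorine and 28.4, 28.5 and 28.5 TPM in vehicle. With median-of-ratios scaling 0 of the 9 separated the groups, and the median was 0.16.

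Of 5 genes serving the thiamine cofactor of transketolase, 4 were tested and 0 passed. All 4 were above 0, against 69.9% of all rows, with a median of 0.51, or 0.20 without vehicle 3. Slc19a2, a thiamine transporter of the cell membrane, had 12.5, 6.94 and 7.60 TPM in lycorine and 5.63, 4.51 and 2.26 TPM in vehicle. Every lycorine library lay above every vehicle library, as in 9.6% of all rows. This held also with median-of-ratios scaling, as in 3.2% of all rows. Its log2 fold change was 0.98 with a 95% interval of 0.10 to 1.87 and an unadjusted p of 0.0332, but the limma adjusted p over all rows was 0.832, and the exact permutation p was 0.1. The Slc19a2 fold change was 0.69 without vehicle 3 and 0.47 with median-of-ratios scaling in addition. Thtpa, which hydrolyses thiamine triphosphate, had a log2 fold change of 0.39 with overlapping groups, and -0.08 without vehicle 3. Slc19a3, another thiamine transporter, was at most 0.35 TPM.

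On the hexose phosphate side 16 of 17 genes were tested, 0 passed, 13 were above 0 and 3 below, and the median was 0.45, or 0.30 without vehicle 3. Tpi1, triose phosphate isomerase, had 239.4, 182.9 and 171.4 TPM in lycorine and 112.2, 110.7 and 133.8 TPM in vehicle, a log2 fold change of 0.72 (limma unadjusted p = 0.0324, adjusted p = 0.832). Slc37a4, which carries glucose 6-phosphate into the endoplasmic reticulum where H6pd works, had 69.4, 59.5 and 56.0 TPM in lycorine and 41.1, 41.2 and 36.6 TPM in vehicle, without overlap. Its log2 fold change was 0.62 (adjusted p = 0.832), and with median-of-ratios scaling the groups overlapped.

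Of 10 tested genes of other NADPH sources, 0 passed, 7 were above 0, 3 below, and their median of 0.21 was that of all rows within 0.01. Idh1, the cytosolic isocitrate dehydrogenase, had 76.3, 96.4 and 73.5 TPM in lycorine and 55.4, 64.2 and 49.7 TPM in vehicle. Aldh1l1, which oxidises formyl tetrahydrofolate with release of NADPH, had 507.2, 508.7 and 492.9 TPM in lycorine and 389.6, 372.5 and 448.2 TPM in vehicle. Neither overlapped as deposited, and both did with median-of-ratios scaling. Mthfd2l, a mitochondrial folate enzyme, had 5.40, 4.80 and 4.05 TPM in lycorine and 10.2, 5.02 and 17.1 TPM in vehicle, with a log2 fold change of -0.90, or -0.52 without vehicle 3, and separated the groups downward with median-of-ratios scaling.

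Genes of a redox list were above 0 in 10 of 10 cases, against 69.9% of all rows. Their median was 0.40, or 0.23 without vehicle 3, and 0 passed. Most of them spend NADPH, but Cyb5r3 and Cat are not typical NADPH users. Blvrb, biliverdin reductase B, had 244.6, 299.7 and 328.2 TPM in lycorine and 179.0, 174.0 and 200.1 TPM in vehicle, a log2 fold change of 0.65 (limma unadjusted p = 0.0414, adjusted p = 0.832). Cyb5r3, a reductase of cytochrome b5, had 222.4, 241.5 and 205.3 TPM in lycorine and 198.4, 179.5 and 95.7 TPM in vehicle, and Cat, catalase, overlapped between groups with a log2 fold change of 0.50, or 0.22 without vehicle 3. Cyb5r3 had 0.56, or 0.24 without vehicle 3, and both Blvrb and Cyb5r3 overlapped with median-of-ratios scaling.

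Targets of factors known to act on the pathway were on both sides of 0. Of 13 tested NRF2 targets outside the pathway, 0 passed, 8 were above 0 and 5 below, and the median was 0.24 (-0.05 without vehicle 3). Gclm, a subunit of the enzyme that starts glutathione synthesis, had 126.3, 73.8 and 69.2 TPM in lycorine and 54.5, 68.5 and 26.2 TPM in vehicle. Osgin1, a growth inhibitor induced by oxidative stress, had 34.6, 62.0 and 82.1 TPM in lycorine and 191.6, 89.1 and 55.9 TPM in vehicle. Gstm1, a glutathione transferase, was lowest in vehicle 3 and overlapped between groups, with a log2 fold change of 0.71, or 0.06 without vehicle 3. Of 10 tested lipogenesis genes 0 passed, 7 were above 0 and the median was 0.28, with Acly, ATP citrate lyase, at 9.34, 7.73 and 4.16 TPM in lycorine and 4.68, 3.40 and 3.31 TPM in vehicle. Thrsp, a regulator of lipogenesis, and Pklr, the liver pyruvate kinase, had log2 fold changes of 1.12 and 0.76 with overlapping groups, or 1.49 and 0.34 without vehicle 3.

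Nucleotide synthesis from phosphoribosyl pyrophosphate was read last. Of 8 purine genes 0 passed and 8 were above 0, against 69.9% of all rows. The median was 0.42, or 0.28 without vehicle 3. Of the 8, 1 separated the groups, against 9.6% of all rows. This was Paics, at 26.7, 21.8 and 18.8 TPM in lycorine and 14.6, 16.2 and 12.9 TPM in vehicle. With median-of-ratios scaling Paics overlapped and 0 of the 8 separated the groups. Atic and Adsl, later enzymes of the same route, overlapped, with log2 fold changes of 0.71 and 0.44, or 0.30 and 0.31 without vehicle 3. Of 4 pyrimidine genes 0 passed, 2 were above 0 and 2 below, among them Dhodh at 0.30 and Cad at -0.05, or -0.04 and 0.06 without vehicle 3. Umps, the final enzyme of uridine monophosphate synthesis, had 9.46, 7.09 and 9.69 TPM in lycorine and 6.26, 4.41 and 4.03 TPM in vehicle. Its log2 fold change was 0.73 (limma unadjusted p = 0.0380, adjusted p = 0.832). Umps separated the groups upward, as did 9.6% of all rows, and with median-of-ratios scaling too, as did 3.2%.

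**Figure D4:**
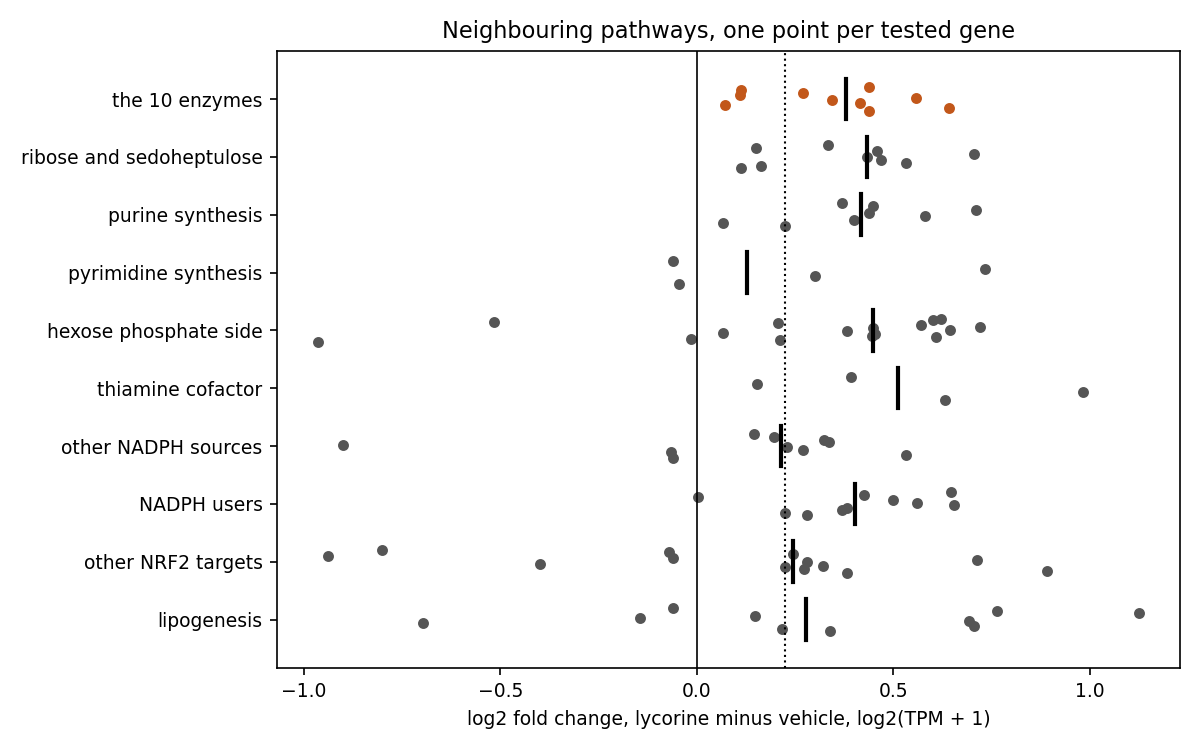
Log2 fold change of lycorine minus vehicle for every tested gene of the 10 enzymes (orange) and of 9 neighbouring lists (grey), with a black bar at each list's median and a dotted line at the median of all tested rows, 0.22. The median of the 10 enzymes, 0.38, lies among those of the neighbouring lists, which run from 0.13 for pyrimidine synthesis to 0.51 for the thiamine cofactor.

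Atf3, which the title joins to Tkt, had 4.02, 3.21 and 4.14 TPM in lycorine and 16.1, 19.3 and 10.2 TPM in vehicle, so that these groups did not overlap while those of Tkt did (log2 fold change -1.72, limma adjusted p = 0.832).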

How the data were processed

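RNA was measured in 6 liver libraries, 3 lycorine and 3 vehicle. The authors deposited 1 table of TPM values; although labelled FPKM, each column adds up to 1000000 within rounding. Per the submitters' processing notes the builds are GRCm38 and mm10. Aligner, quantifier, annotation and strand setting: not given in the sources used here. The vehicle columns carry only genotype and number and were matched to vehicle because the other columns carry a short form of lycorine. TPM keeps no depth, so the sequencing depth is unknown and counting error cannot be stated. Rows without a gene name in GENCODE M21, assembled loci among them, held 1.65% to 10.8% of TPM per library.

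Gene names and coordinates came from GENCODE M21 (GRCm38), and sequences from RefSeq (GRCm38.p6). Rows averaging 1 TPM or more were transformed to log2(TPM + 1), which understates changes of weakly expressed genes, and tested two-sided in R 4.3.3 using limma 3.58.1, with the prior variance following mean level and Benjamini-Hochberg adjustment over all tested rows. The fit was tested on simulated data. It called 9 of 50 simulated rows with a true log2 change of 1, and 48 of 50 with a change of 2. A row that was not called can therefore still hold a change of the size estimated for the enzymes. Similar transcripts were searched with blastn 2.17.0 (at least 90% identity over 200 bases). Named were the 10 enzymes, the thiamine genes, Atf3, up to 3 genes with the smallest p per list, and the 8 genes most like Tkt. Some genes that this rule names are not reported here. Members and lists were chosen with earlier results of these data known. Alternatives covered pseudocount, filter, scaling, variance model, library weights, a replicate block and left-out libraries.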

Additional observations from a re-analysis of the deposited data

How the results depend on the processing

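Over 18 alternative settings, 0 of the 176 fits of the 10 enzymes passed an adjusted p of 0.05, and 150 kept the sign. Taldo1, Pgd and Pgls kept it in each setting. The count of rows called, 0 as reported, was 1 under a 0.1 pseudocount, 1 when libraries were weighted by array quality, 5 with both vehicle 3 and lycorine 3 left out, 3 with these left out and median-of-ratios scaling, and 0 to 2 with each library left out. The median of the 10 genes minus that of all rows was 0.16, 0.33 with no filter, and -0.10 to 0.29 with each library left out. Tkt had log2 fold changes of 0.03 to 0.68 with each library left out, and -0.21 without vehicle 3 and -0.12 without vehicle 3 and lycorine 3, both with median-of-ratios scaling.

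With vehicle 3 left out and median-of-ratios scaling the log2 fold changes were also negative for G6pdx (-0.44), Rbks (-0.25), H6pd (-0.18), Prps1 (-0.082), Rpia (-0.045) and Rpe (-0.036). With lycorine 3 left out too they were -0.12 for G6pdx, -0.12 for Rbks and -0.0005 for Prps1. With median-of-ratios scaling alone they were -0.12 for G6pdx, -0.18 for Rbks and -0.077 for Rpia, with quantile normalization -0.032 for G6pdx and -0.075 for Rbks, and with protein-coding nuclear genes alone -0.10 for G6pdx, -0.14 for Rbks and -0.066 for Rpia. G6pdx was at -0.011 with array quality weights. With each library left out, the range was -0.36 to 0.67 for G6pdx, -0.056 to 0.29 for Rbks and -0.10 to 0.33 for Rpia. The cause was not tested.

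Rows with an unadjusted p under 0.05 were 386 higher and 90 lower as deposited, while median-of-ratios scaling gave 127 higher and 193 lower. Same-numbered libraries deviated together with r of 0.311, 0.0494 and 0.291, and differently numbered ones with r of -0.344 to 0.214. The labels name no pairs, so the numbers were not taken as pairs, though these values do not settle it. With the replicate block 0 rows were called, the median difference was 0.16 and Tkt had 0.44 (limma adjusted p = 0.612). Depth is unknown, so what it limits could not be measured.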
